A study of Mus musculus with 2 samples.

Results

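The 35 genes described here are 16 T cell genes, 9 B cell genes and 10 pan-leukocyte genes, among 21815 protein-coding genes annotated in the mouse genome (GENCODE M21 on GRCm38/mm10). They were chosen by name, and with earlier results of these same data known, because their promoters had been found open unequally in the 2 libraries of the series. The difference between the libraries at these promoters is therefore what chose the genes, and it is given as a description with no test.

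DNase-seq, which maps chromatin that the enzyme DNase I can cut, was run on adrenal glands from 2 male mice of the B6CASTF1/J strain at 25 days of age, a first-generation cross of the C57BL/6J and CAST/EiJ strains. Replicate 2 and replicate 1 are separate animals per the labels, which also give both the same donor code, with 1 library each and no treatment. Both libraries belong to 1 group, so no comparison between conditions exists, no difference between them has a replicate check, and all values are given per library. A DNase I hypersensitive site (DHS) below is a peak listed by the authors, and its height is the value the authors gave to the peak, a signal on the scale of each library. The longer of the 2 deposited lists held 157786 DHSs of median height 0.720 in replicate 2 and 130945 DHSs of median height 1.01 in replicate 1. A promoter DHS lay within 1 kb of any annotated protein-coding start of a gene, and 69.1% of all genes had one in replicate 2, against 69.4% in replicate 1. In the longer lists, adrenal markers were alike in the number of promoters listed. A promoter DHS was listed for 9 of 10 cortex genes and 6 of 10 genes of chromaffin cells in each library. Their heights were not alike. The median was 4.02 in replicate 2 and 7.55 in replicate 1 for cortex genes, and 3.70 and 7.37 for chromaffin genes. Over all genes it was 6.25 in replicate 2 and 8.85 in replicate 1. In the shorter lists, 5 chromaffin genes had a promoter DHS in replicate 2 and 6 in replicate 1, and 8 cortex genes had one in each.

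T cells recognise antigen through a receptor whose CD3 chains pass the signal to the kinases Lck and Zap70 and the adaptor Lat, and B cells do the equivalent through the Cd79a and Cd79b chains, the kinases Blk and Btk and the adaptor Blnk. The lineages are set by transcription factors, Tcf7 and Bcl11b in T cells and Pax5 and Ebf1 in B cells, while the Ikaros factors, CD45 and its partners and the Rac2 and Vav1 pathway serve leukocytes in general. The adrenal gland consists of a steroid-producing cortex and a catecholamine-producing medulla. Lymphocytes can be present in blood, lymph vessels, fat or lymph node taken with the gland. In bulk tissue, fewer cells of a type and less accessibility per cell cannot be told apart.

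The difference shows most plainly at promoter DHSs of genes listed in both deposited lists of replicate 2 and in neither of replicate 1. Of the 6 highest of these, 5 are printed below, followed by the highest T cell and B cell promoter DHSs, which both libraries shared. Each is up to 200 bases centred on the DHS, from RefSeq's GRCm38 sequence, read 5′ to 3′ on the gene's strand and trimmed to the stretch outside annotated UTRs. Capitals mark the motif words searched for, and the windows of Laptm5 and Coro1a are not printed because fewer than 100 bases lay outside UTRs. The windows are chr7:126369542-126369670 for Lat, chr15:78571681-78571880 for Rac2, chr11:106314530-106314664 for Cd79b, chr7:45239291-45239490 for Cd37, chr11:52283281-52283480 for Tcf7 and chr4:44704481-44704680 for Pax5, all on the minus strand, and chr7:24897266-24897380 for Cd79a on the plus strand.
Lat: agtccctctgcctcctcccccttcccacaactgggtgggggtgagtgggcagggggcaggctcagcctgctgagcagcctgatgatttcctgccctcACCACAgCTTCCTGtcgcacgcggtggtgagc
Rac2: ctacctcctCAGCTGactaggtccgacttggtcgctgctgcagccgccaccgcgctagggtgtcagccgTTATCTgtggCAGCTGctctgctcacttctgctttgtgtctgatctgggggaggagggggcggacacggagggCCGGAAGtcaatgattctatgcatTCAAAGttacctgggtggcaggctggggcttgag
Cd79b: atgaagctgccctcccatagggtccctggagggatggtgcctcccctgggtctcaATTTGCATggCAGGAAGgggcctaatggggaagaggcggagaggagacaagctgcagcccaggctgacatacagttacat
Cd37: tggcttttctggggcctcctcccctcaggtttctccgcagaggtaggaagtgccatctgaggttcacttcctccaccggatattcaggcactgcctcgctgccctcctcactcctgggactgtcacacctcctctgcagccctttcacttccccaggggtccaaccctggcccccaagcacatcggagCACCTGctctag
Cd79a: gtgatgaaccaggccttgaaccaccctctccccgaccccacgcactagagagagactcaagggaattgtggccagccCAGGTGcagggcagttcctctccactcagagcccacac
Tcf7: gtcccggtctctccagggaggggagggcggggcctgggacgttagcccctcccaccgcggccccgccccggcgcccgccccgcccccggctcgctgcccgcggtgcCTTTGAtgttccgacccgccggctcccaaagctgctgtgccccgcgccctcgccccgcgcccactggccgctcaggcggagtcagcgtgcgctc
Pax5: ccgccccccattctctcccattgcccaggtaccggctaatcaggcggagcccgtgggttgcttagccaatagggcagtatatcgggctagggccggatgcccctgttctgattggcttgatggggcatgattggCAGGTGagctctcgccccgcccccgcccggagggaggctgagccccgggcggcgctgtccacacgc

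Lat held an ACCACA word, the RUNX word read from the other strand, next to a CTTCCTG word of the ETS family. Cd79b held the octamer ATTTGCAT, a word bound by POU factors, next to the ETS word CAGGAAG. Rac2 held 1 ETS, 1 GATA, 1 TCF and 2 E-box words. The shared Tcf7 site held a TCF word, of which 5 of 6 bases lay in a footprint that the authors called in replicate 2, and the shared Pax5 site held a single E-box word.

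Of the 35 genes, 30 had a promoter DHS in replicate 2 and 13 in replicate 1. These are 85.7% and 37.1% of the members, against 69.1% and 69.4% of all genes. Promoter DHSs were listed for 17 members in replicate 2 alone, for 13 in both libraries, for none in replicate 1 alone and for 5 in neither. Over all genes, 3.34% had a promoter DHS in replicate 2 alone and 3.60% in replicate 1 alone, and since the members were chosen for this contrast nothing is read from the gap. By class, replicate 2 and replicate 1 had a promoter DHS at 13 and 4 of 16 T cell genes, at 8 and 3 of 9 B cell genes, and at 9 and 6 of 10 pan-leukocyte genes. In the shorter lists the members numbered 21 in replicate 2 and 8 in replicate 1, with 13 in replicate 2 alone and none in replicate 1 alone. By class these were 7 and 2 T cell, 5 and 3 B cell, and 9 and 3 pan-leukocyte genes. Replicate 2 alone held 5 T cell, 2 B cell and 6 pan-leukocyte genes there, against 9, 5 and 3 in the longer lists. The shorter list of replicate 2 held no promoter DHS for Cd3e, Cd8b1, Cd2, Cd6, Zap70, Il7r, Ms4a1, Cd22 or Blk. Over all genes the shorter lists gave 61.9% and 65.3%, with 1.30% in replicate 2 alone and 4.67% in replicate 1 alone.

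**Figure D1:**
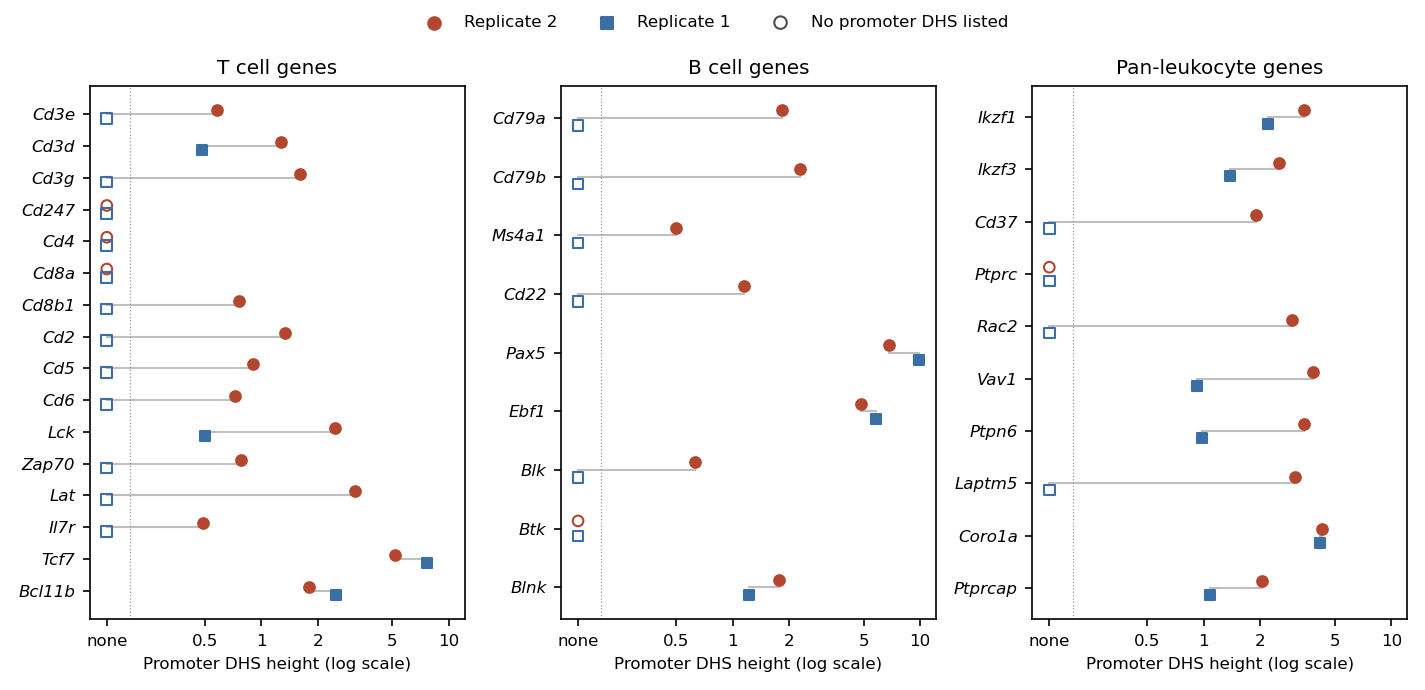
Height of the strongest promoter DHS of each member (log axis, no unit beyond the authors' scale) in replicate 2 (red circles) and replicate 1 (blue squares), by class; open symbols at "none" mark genes with no promoter DHS in the longer list. Open blue squares opposite filled red circles are the 17 genes listed in replicate 2 alone, and Pax5, Tcf7, Ebf1 and Bcl11b are the 4 genes with the blue square to the right.

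Genes for the receptor complex of T cells had low promoter DHSs in replicate 2 and almost none in replicate 1. The neighbours Cd3e, Cd3d and Cd3g lie side by side on chromosome 9 and encode the epsilon, delta and gamma chains of CD3. Cd3g had a DHS of height 1.61 at its 5′ end (+30 bp) in replicate 2 and none in replicate 1, and Cd3e had one of height 0.577 (−36 bp) in replicate 2 and none in replicate 1. Cd3d had a DHS of height 1.27 in replicate 2 and 0.483 in replicate 1 at a start inside the gene, and these sites overlapped by 32 bp. Cd247, which encodes the zeta chain, had no promoter DHS in either library and a single distal DHS upstream (−7980 bp), of height 1.23 in replicate 2 and 1.82 in replicate 1. Cd3e had a distal DHS in both libraries too (−13365 bp), of height 0.728 in replicate 2 and 1.26 in replicate 1, so at shared distal sites the epsilon and zeta genes were both lower in replicate 2.

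The coreceptor genes Cd4 and Cd8a had no promoter DHS in either library. Cd4, the coreceptor of helper T cells, had a single DHS inside its locus, of height 0.764 in replicate 2 and 0.708 in replicate 1. Cd8a, a chain of the coreceptor of cytotoxic T cells, had distal DHSs of height 0.764 and 0.569 in replicate 2 and of 0.333 in replicate 1, at different positions. Cd8b1, which encodes the other chain, had a promoter site (−14 bp) of height 0.764 in replicate 2 and no assigned DHS of any kind in replicate 1. The start of a neighbouring gene lies 541 bp from that promoter site. Apart from Cd8b1, the coreceptor genes showed no promoter site, and their DHSs stood near or below the median height of their library.

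The other surface receptors of T cells, Cd2, Cd5, Cd6 and Il7r, each had a promoter DHS in replicate 2 and none in replicate 1, where 3.34% of all genes had that pattern. Cd2, an adhesion receptor, had a promoter site (−42 bp) of height 1.33 in replicate 2 and none in replicate 1. Cd5 and Cd6, related scavenger-type receptors that dampen T cell receptor signals, had promoter DHSs of height 0.906 and 0.720 in replicate 2 and none in replicate 1. Il7r, the alpha chain of the interleukin-7 receptor, had the lowest of the members' promoter heights in replicate 2, 0.489, and none in replicate 1. Cd2 and Cd5 ran the other way at distal sites that both libraries listed. The Cd2 site at −7742 bp had a height of 2.74 in replicate 2 and 7.93 in replicate 1, and the Cd5 site at +29441 bp had 4.17 in replicate 2 and 12.4 in replicate 1.

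Among the proximal signalling genes of the T cell receptor, Lat and Zap70 had promoter DHSs in replicate 2 alone and Lck had them in both libraries. Lat, the adaptor that gathers signalling proteins after Zap70 has phosphorylated it, had a DHS of height 3.14 centred 1 bp before its 5′ end (−1 bp) in replicate 2, and replicate 1 listed no DHS of any kind nearest to it. Zap70, the kinase that binds phosphorylated CD3 chains, had a promoter site at an internal start, of height 0.782 in replicate 2 and none in replicate 1. Lck, the Src-family kinase that starts the cascade, had one of height 2.46 at its 5′ end (+10 bp) in replicate 2, against a separate DHS of height 0.5 further inside the gene (+871 bp) in replicate 1. Lck therefore counts as open in both libraries, but its sites did not overlap. The strongest site assigned to Lck, distal at +17040 bp, had a height of 7.91 in replicate 2 and 15.5 in replicate 1.

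Tcf7 and Bcl11b, the transcription factors of the T lineage, had promoter DHSs in both libraries and were lower in replicate 2. Tcf7 had a height of 5.19 in replicate 2 and 7.62 in replicate 1 at the same site (−367 bp), a log2 ratio of replicate 2 over replicate 1 of −0.56. Bcl11b had 1.79 in replicate 2 and 2.49 in replicate 1, a log2 ratio of −0.47. Over all 14348 genes with a promoter DHS in both libraries the median log2 ratio was −0.46, with an SD of 0.47 over genes, so both lay near the middle of all genes.

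B cell genes had a promoter DHS in replicate 2 alone at 5 of 9 and in both libraries at 3 of 9. Cd79a and Cd79b encode the signalling chains of the B cell receptor. Cd79a had a promoter site (−15 bp) of height 1.83 in replicate 2 and no DHS nearest to it in replicate 1. Cd79b had promoter sites of height 2.28 (+141 bp) and 1.82 (+1041 bp) in replicate 2 and none in replicate 1. Cd22, an inhibitory receptor that binds sialic acid, had one of height 1.15 (−8 bp), Blk, a Src-family kinase, one of height 0.631, and Ms4a1, the gene for CD20, one of height 0.497, all in replicate 2 and none in replicate 1. Btk, a Tec-family kinase needed for B cell maturation, had no DHS in either library and was the only member with none.

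Blnk, Pax5 and Ebf1 were listed in both libraries. Blnk, the adaptor that links the B cell receptor to its effectors, had a promoter height of 1.77 in replicate 2 and 1.22 in replicate 1, a log2 ratio of 0.54. Pax5, the factor that commits cells to the B lineage, had 6.80 in replicate 2 and 9.83 in replicate 1 at an internal start (+5906 bp, log2 ratio −0.53). Ebf1, which acts in early B cells and also in adipocytes and other stromal cells, had 4.83 in replicate 2 and 5.84 in replicate 1 (log2 ratio −0.27). Tcf7, Bcl11b, Pax5 and Ebf1 were the 4 members whose promoter height as deposited was lower in replicate 2. With heights scaled to the summed height of each library the log2 ratios were −0.16, −0.08 and −0.14 for Tcf7, Bcl11b and Pax5 and 0.12 for Ebf1, which thus turned.

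Of the pan-leukocyte genes, 3 had a promoter DHS in replicate 2 alone, with heights from 1.89 to 3.06. Laptm5, a lysosomal membrane protein of haematopoietic cells, had a promoter site (+146 bp) of height 3.06 in replicate 2 and none in replicate 1. Rac2, a small GTPase of blood cells, had 3 promoter sites, of height 2.97, 2.68 and 2.07, in replicate 2 and none in replicate 1. Cd37, a tetraspanin of leukocytes, had one of height 1.89 in replicate 2 and none in replicate 1. The first of these genes also had a far upstream site at −34404 bp with a height of 3.74 in replicate 2 and 11.5 in replicate 1, so the promoter and the distal site of Laptm5 differed in opposite directions.

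Apart from Ptprc, the other pan-leukocyte promoters were listed in both libraries, and the strongest was not lower in replicate 2 at any of these 6. Vav1, an exchange factor for Rac proteins, had a height of 3.81 in replicate 2 and 0.925 in replicate 1 at the same site, a log2 ratio of 2.04. Ptpn6, the phosphatase SHP-1, had 3.42 in replicate 2 and 0.983 in replicate 1 at an internal start (+5563 bp, log2 ratio 1.80), while a DHS of height 0.975 near its 5′ end (+147 bp) was listed in replicate 1 alone. Ikzf3, the Aiolos gene, had 2.53 in replicate 2 and 1.38 in replicate 1, and Ikzf1, the Ikaros gene, had 3.43 in replicate 2 and 2.21 in replicate 1. Coro1a, an actin regulator, had almost equal heights of 4.27 in replicate 2 and 4.17 in replicate 1 at an internal start, while a DHS of height 1.04 at its 5′ end (−17 bp) was listed in replicate 2 alone. Ptprcap, the CD45-associated protein, had 2.05 in replicate 2 and 1.08 in replicate 1, at separate positions. Ptprc, the gene for CD45 itself, had no promoter DHS in either library.

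For the 13 members with a promoter DHS in both libraries the median log2 ratio was 0.63, and 9 of 13 were higher in replicate 2, against a median of −0.46 and 11.7% higher over all genes. The strongest sites of 11 of these members overlapped between the libraries, and 7 of the 11 were higher in replicate 2. Heights here are as deposited. Scaling each library to its summed height raised every log2 ratio by 0.40, which brought the median of all genes to −0.07, with 43.1% of genes higher in replicate 2, and 10 of the 13 members were then higher there. In the shorter lists, 8 members had a promoter DHS in both libraries, 4 of which were higher in replicate 2, and their median log2 ratio was −0.12, against 9.96% of genes higher and a median of −0.47 over all genes.

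**Figure D2:**
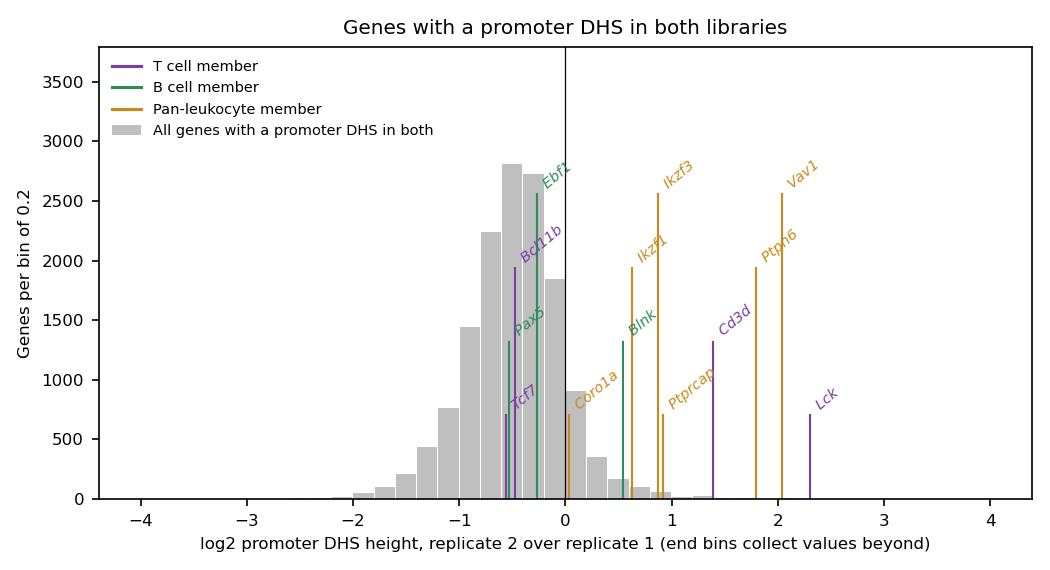
Number of genes (grey bars) by log2 ratio of promoter DHS height as deposited, replicate 2 over replicate 1, for the 14348 genes with a promoter DHS in both libraries, with the 13 members drawn as coloured lines (the line length has no meaning). Tcf7, Pax5, Bcl11b and Ebf1 stand inside the bulk of the genes, between −0.56 and −0.27 (Ebf1 turns to 0.12 with scaled heights), and Ptpn6, Vav1 and Lck stand at 1.80, 2.04 and 2.30.

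The promoter DHSs that replicate 1 lacked were lower than promoter DHSs in general, whose median height over all genes was 6.25 in replicate 2 and 8.85 in replicate 1. Over the 17 members the heights ran from 0.489 to 3.14 with a median of 1.15, against a median of 0.497 over all 728 genes with a promoter DHS in replicate 2 alone. Of the 17, 9 lay above 1.01, the median height of all DHSs in replicate 1, as did 12.6% of the 728. Ranked by height among the 728, Lat was 4th, Laptm5 6th, Rac2 7th and Cd79b 13th. The highest 50 of the 728 held 7 members, and 7 more genes came from lists of other T cell, B cell and leukocyte genes. None of the 50 came from the lists of NK cell, macrophage, neutrophil, erythroid, lymphatic endothelial, adipocyte, cortex or chromaffin genes. The members and the lists were chosen with earlier results of these data known, so nothing is read from these heights and ranks.

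The deposited false discovery rates (FDR), which the authors listed along the genome up to 0.05, were read at the same sites. The 17 members were picked for having no promoter DHS in replicate 1, and none had a listed stretch of replicate 1 inside its replicate 2 site, as was so for 700 of the 728 genes picked in that way. In replicate 2 the lowest FDR in the site was 1.31e-14 at Lat, 1.02e-12 at Laptm5, 3.17e-12 at Rac2 and 9.98e-09 at Cd79b, and it reached only 0.0287 at Cd22 and 0.0170 at Zap70. At Lck and Ptprcap, which count as open in both, replicate 1 likewise had no listed stretch inside the replicate 2 site. None of the 5 members without a promoter DHS had a listed stretch within 1 kb of a start in either library.

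Sites farther from the promoters were counted by giving each DHS to its nearest protein-coding start within 100 kb. The 35 genes had 236 such DHSs in replicate 2 and 154 in replicate 1, of which 59 and 22 touched a promoter and 177 and 132 were distal. More DHSs were assigned in replicate 2 than in replicate 1 at 27 members and fewer at 4, where 41.3% of all genes had more and 29.9% had fewer. T cell genes had 101 in replicate 2 and 73 in replicate 1, B cell genes 70 and 45, and pan-leukocyte genes 65 and 36. In the shorter lists B cell genes had 39 in replicate 2 and 26 in replicate 1, and pan-leukocyte genes 41 and 28. T cell genes had fewer in replicate 2 there, 43 against 46 in replicate 1. All genes together also had fewer there, 57766 in replicate 2 against 72207 in replicate 1. In those lists 19 members had more in replicate 2 and 6 had fewer, where 14.5% of all genes had more and 41.5% had fewer. Summed over the members, the heights were nearly equal, 351 in replicate 2 and 355 in replicate 1, over 37.2 kb in replicate 2 and 26 kb in replicate 1. The mean height per DHS was accordingly lower in replicate 2, at 1.49 against 2.30 in replicate 1. Over all genes the mean was likewise lower in replicate 2, at 1.94 against 2.86 in replicate 1. The summed heights of all genes were not nearly equal, at 231931 in replicate 2 and 314147 in replicate 1.

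Overlap between the libraries was counted apart for promoter and distal sites of the members. Of the 59 promoter DHSs assigned in replicate 2, 16 (27.1%) overlapped a DHS of replicate 1, where 81.1% did over all genes. Of the 22 assigned in replicate 1, 15 (68.2%) overlapped a DHS of replicate 2, where 80.9% did over all genes. The members were chosen for promoters open unequally, so nothing is read from these gaps at promoters. Of the 177 distal DHSs in replicate 2, 46.3% overlapped replicate 1, where 52.7% did over all genes. Of the 132 in replicate 1, 61.4% overlapped replicate 2, where 59.0% did over all genes. Where distal sites did overlap, replicate 2 was higher at 25 of 82 pairs (30.5%), where 32.1% of pairs were higher over all genes. The median log2 ratio of these pairs was −0.31 for the members and −0.32 for all genes, and by class it was −0.67 over 40 pairs of T cell genes, −0.19 over 24 of B cell genes and −0.26 over 18 of pan-leukocyte genes. The overlapping distal sites numbered 82 in replicate 2 and 81 in replicate 1, so the further DHSs of the members in replicate 2 were promoter sites and distal sites with no counterpart. Distal DHSs of replicate 2 that did not overlap replicate 1 numbered 95, or 53.7% of the members' distal DHSs (47.3% over all genes). Their median height was 0.711 (0.497 over all genes). Those of replicate 1 that did not overlap replicate 2 numbered 51, or 38.6% (41.0% over all genes), with a median of 0.567 (0.6 over all genes).

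**Figure D3:**
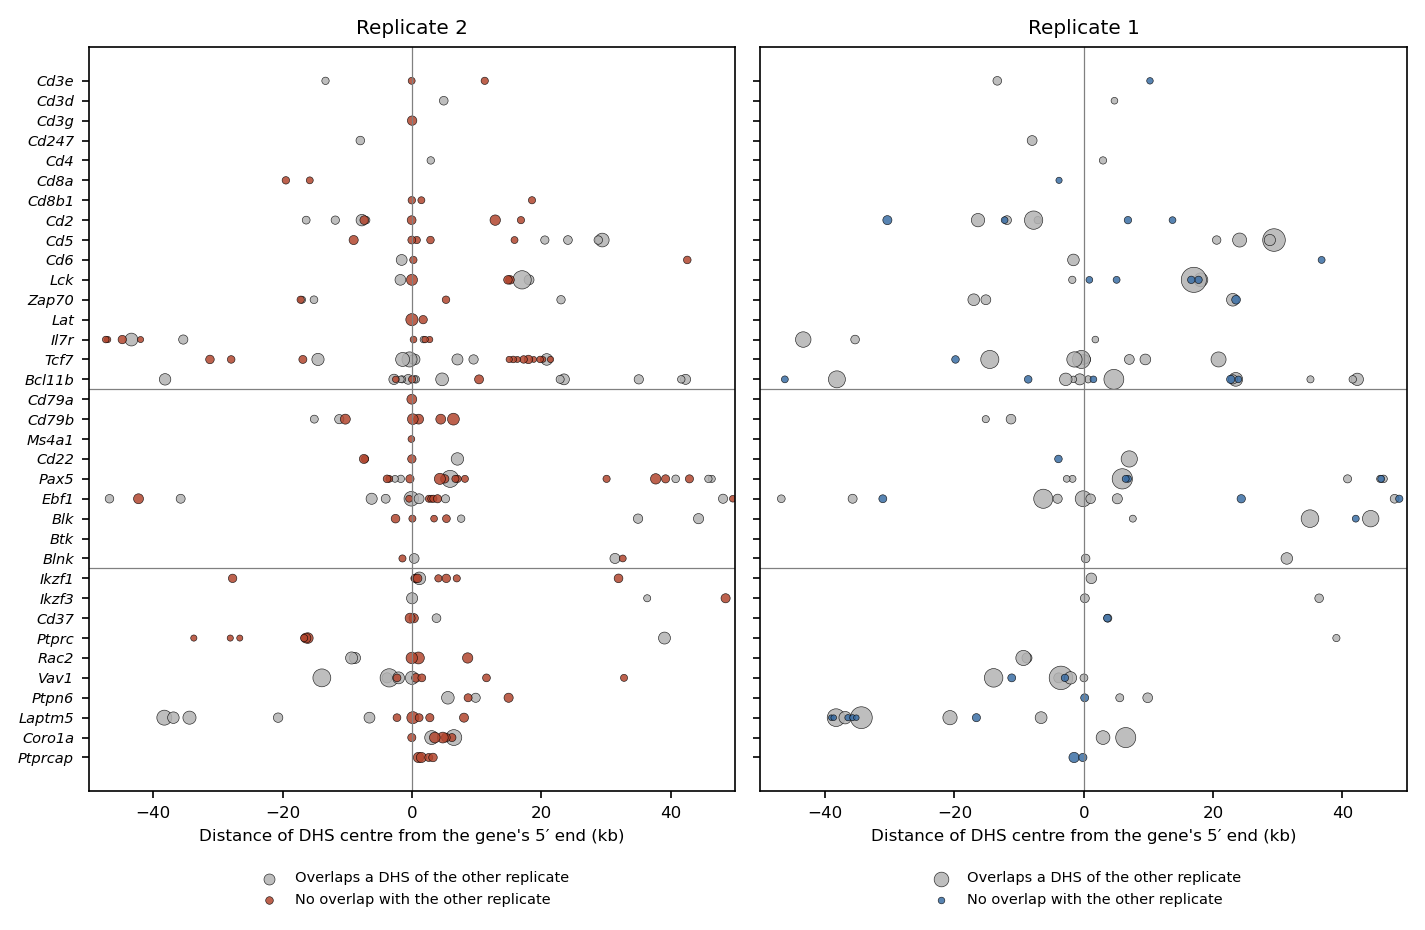
Position of each assigned DHS of the longer lists relative to the gene's annotated 5′ end (kb, within 50 kb, positive values downstream) in replicate 2 (left) and replicate 1 (right), with point area growing with height; grey points overlap a DHS of the other library and coloured points do not. Horizontal lines part T cell, B cell and pan-leukocyte genes. Coloured points stand at or near the 5′ end of many genes in replicate 2, as at Lat, Cd79a and Rac2, while the large grey points away from it, as at Lck, Cd5 and Laptm5, are larger in replicate 1.

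Some loci with many sites had more DHSs in replicate 2 and others had fewer. Ptprc had 9 distal DHSs in replicate 2 and 3 in replicate 1. Its site at +39067 bp had a height of 2.99 in replicate 2 and 0.667 in replicate 1, and a cluster from −16093 to −16673 bp, with heights of 2.21, 1.81 and 0.684, was listed in replicate 2 alone. Ikzf1 had 10 DHSs in replicate 2 and 2 in replicate 1, and the 8 further sites of replicate 2 ranged in height from 0.648 to 1.28. Cd79b had 7 in replicate 2 and 2 in replicate 1, with sites of height 2.91, 1.85 and 1.89 at +6421, +4461 and −10299 bp in replicate 2 alone. Il7r had 13 and 5, Tcf7 20 and 9, Ebf1 22 and 14, Pax5 24 and 20, Vav1 10 and 7 and Coro1a 7 and 2, in each case with more in replicate 2. Bcl11b had 21 in replicate 2 and 24 in replicate 1, Cd2 had 10 and 12, Laptm5 10 and 11, and Lck 6 and 7, and these were the 4 members with fewer in replicate 2. The remaining loci with 5 or more sites were Cd5 with 9 in replicate 2 and 4 in replicate 1, Blk with 7 and 5, Rac2 with 5 and 2, and Zap70 with 5 and 4.

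A single value per gene was formed from the summed height of its assigned DHSs, in ppm of the summed height of the library plus a pseudocount of 1 ppm. On that scale the median log2 ratio of replicate 2 over replicate 1 was 0.70 over the 34 members with a DHS and 0.01 over all genes with a DHS. Of the 34 members, 26 (76.5%) were higher in replicate 2, against 50.9% of all genes with a DHS. The sums include the promoter DHSs for which the members were chosen, so nothing is read from these gaps. The class medians were 0.46 for T cell genes, 0.49 for B cell genes and 1.28 for pan-leukocyte genes. Lat, Cd8b1, Cd79a, Cd3g and Ms4a1 had no assigned DHS in replicate 1, so the sizes of their ratios depend on the pseudocount and are not given, and all 5 stood above the median. Among the 29 members with a DHS in both libraries, Ptprc and Cd79b had the highest ratios, 2.82 and 2.71, and Zap70 and Blk the lowest, −0.77 and −0.63.

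Lists of other cell types were set beside the members. Of 56 other T cell, B cell and leukocyte genes, 46 had a promoter DHS in replicate 2 and 26 in replicate 1, with 23 in replicate 2 alone and 3 in replicate 1 alone. Among these, Pou2af1, a B cell coactivator of POU factors, had a height of 2.01 in replicate 2, Cd52, a surface glycoprotein of lymphocytes, 1.94, Dock2, an activator of Rac proteins, 1.68, and Cxcr5, the receptor that guides B cells to follicles, 1.66, with none in replicate 1. Themis and Cd96 among T cell genes and Cd72, Fcmr and Vpreb3 among B cell genes had heights from 0.560 to 1.05 in replicate 2 and none in replicate 1. In lists of other blood cells, promoter DHSs were listed for 2 of 10 NK cell genes in each library (1 gene in both), for 4 of 11 macrophage genes in replicate 2 and 3 of 11 in replicate 1, for 3 of 8 neutrophil genes in each library (2 in both) and for 3 of 8 erythroid genes in each library (2 in both). Genes of lymphatic endothelium, which lines lymph vessels, had one at 4 of 6 in replicate 2 and 5 of 6 in replicate 1, and adipocyte genes at 9 of 9 in replicate 2 and 8 of 9 in replicate 1. In the shorter lists the adipocyte numbers turned, to 5 of 9 in replicate 2 and 8 of 9 in replicate 1. The part of blood, lymph vessels, lymph node or fat taken with the gland in the difference between the libraries was not tested.

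**Figure D4:**
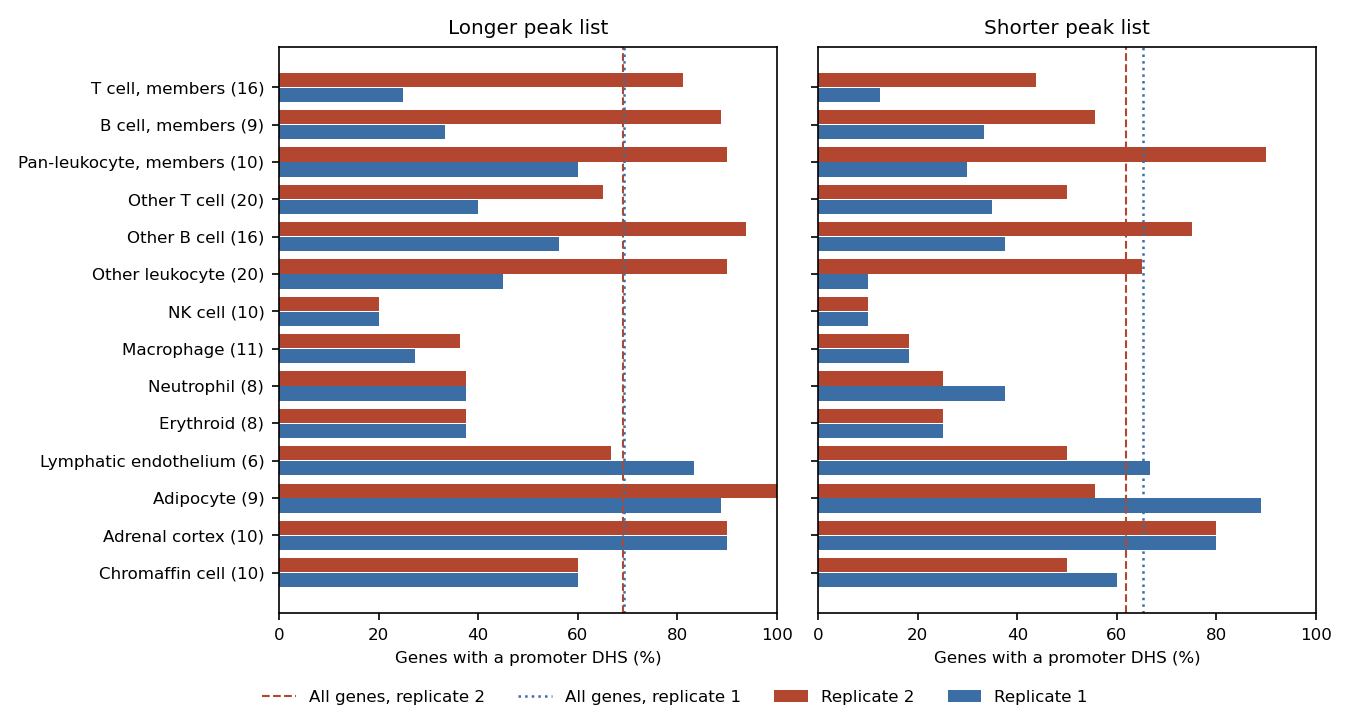
Share of the genes of each list (number of genes in brackets) with a promoter DHS, in percent, in the longer lists (left) and the shorter lists (right), for replicate 2 (red, upper bar) and replicate 1 (blue, lower bar); vertical lines give the share of all genes. The red bar is the longer of the pair in all 6 lists of T cell, B cell and leukocyte genes in both panels, and the cortex bars are equal in both.

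Most members had promoters poor in CpG, a trait that the choice did not use directly. Over all genes, promoters listed in replicate 2 alone were mostly poor in CpG too, so this trait is not independent of the choice. The ratio of observed to expected CpG in the 1 kb around the 5′ end had a median of 0.28 over the members and 0.55 over all genes, and 31 of 35 members (88.6%) were CpG-poor (below 0.6), against 54.1% of all genes. The 4 members at or above 0.6 were Ikzf3 (0.91), Tcf7 (0.86), Bcl11b (0.79) and Pax5 (0.66), and each of the 4 was listed in both libraries. Over all genes, 32.7% of those listed in both libraries and 97.3% of those listed in neither were CpG-poor, so nothing is read from these 4. All 17 members listed in replicate 2 alone were CpG-poor, as were 96.3% of the 728 genes listed there alone. Among CpG-poor genes in general, 45.7% had a promoter DHS in replicate 2 and 45.1% in replicate 1, and 5.94% had it in replicate 2 alone.

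Motif words were counted on both strands in 200 bases centred on the strongest promoter DHS. The ETS words CAGGAAG and CCGGAAG, which resemble sites of factors such as Ets1 and PU.1, occurred at 12 of 30 member promoters in replicate 2 (40%), against 21.5% of all promoter DHSs and 16.6% of those in replicate 2 alone. The RUNX word TGTGGT occurred at 6 of the 30 (20%), against 7.10% of all and 19.1% of those in replicate 2 alone. By class it was at 6 of 13 T cell promoters (46.2%), at 0 of 8 B cell promoters and at 0 of 9 pan-leukocyte promoters. The 6 were Cd3d, Cd2, Lck, Zap70, Lat and Il7r. The E-box words CAGCTG and CAGGTG occurred at 14 of 30 (46.7%), against 22.4% of all and 33.8% of those in replicate 2 alone. The word AGATAA, which GATA factors bind, occurred at 1 of the 30 (2.23% of all promoter DHSs and 8.45% of those in replicate 2 alone). The word TCAAAG of the TCF family occurred at 3 of 30 (10%), against 5.96% of all and 12.6% of those in replicate 2 alone, and the octamer at 1 (0.894% and 0.416%). Neither the EBF word (0.721% of all and 0.693% of those in replicate 2 alone) nor the word AAGGTCA (1.75% and 3.88%), which resembles the NR5A site of the steroidogenic factor of the cortex, occurred at any of the 30. The 30 sites include 13 of genes listed in both libraries, so the shares in replicate 2 alone are of an unlike set. At the 17 member sites in replicate 2 alone the shares were 47.1% for ETS, 23.5% for RUNX and 58.8% for E-box words. They were 11.8% for the TCF word and 5.88% for the GATA word. In the 177 distal DHSs of replicate 2 the ETS and RUNX words occurred at 19.2% and 18.1%, and in the 132 of replicate 1 at 17.4% and 15.9%. The words were not counted in the distal DHSs of all genes, so these shares have no background, and the promoter shares are no substitute. A word match describes the letters in the window and is no measure of binding, and matches of different words were counted apart where they overlapped.

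**Figure D5:**
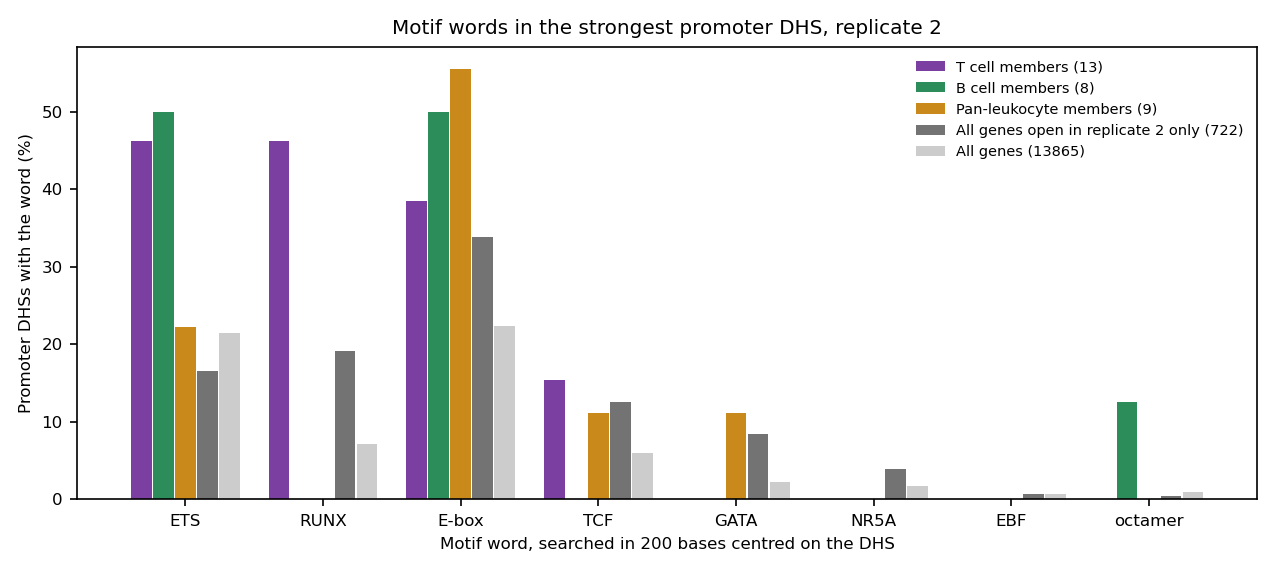
Share of promoter DHSs of replicate 2, in percent, whose central 200 bases hold each motif word, for T cell, B cell and pan-leukocyte members (coloured), for all genes with a promoter DHS in replicate 2 alone (dark grey) and for all genes (light grey), with the number of sites in brackets. The RUNX bar is at 46.2% for T cell members and at 0 for the other classes, beside 19.1% of sites in replicate 2 alone.

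Footprints, short stretches inside a DHS that are cut less than their surroundings and that the authors listed separately, were found at 29 of the 30 member promoter DHSs of replicate 2 (96.7%), where 91.2% of all promoter DHSs held at least 1. Of the 17 sites listed in replicate 2 alone, 16 held a footprint (94.1%), against 57.5% of all promoter DHSs found in replicate 2 alone, and Cd22 was the exception. In replicate 1, 10 of 13 member promoter DHSs held a footprint (76.9%), where 96.8% did over all genes, and the 3 without were Lck, Ikzf3 and Ptpn6. The 17 sites had a median height of 1.15 and the 728 a median of 0.497, and the part of height in these shares was not tested.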

How the data were processed

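DNase-seq data of mouse adrenal gland were taken as deposited: per library 2 peak lists, a list of FDR values and a list of footprints, on mm10 per the labels. Peak heights (column 7) are a signal deposited by the authors. Heights were whole multiples of a step of 0.00888 in replicate 2 and 0.00833 in replicate 1, to within 6.48e-04 and 6.04e-04 of a step. The highest heights were left out of that check. The step is the value of 1 count at totals of 113 M and 120 M if the heights were CPM. The files give no read totals, so the depth is otherwise unknown. The FDR, a form of q-value, was deposited by the authors for stretches at or below 0.05. The aligner and the peak, FDR and footprint callers and the reason for the 2 lists are not stated in the labels or files.

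DHSs were matched to GENCODE M21 protein-coding starts: promoter DHSs touched 1 kb on either side of any start of a gene, and each DHS was assigned to the nearest start within 100 kb of its centre. Genes with a repeated symbol were left out. Overlap meant at least 1 shared bp. The members and gene lists were chosen with earlier results of these data known; the octamer word, an alternative pairing of lists, and scaled or shorter-list promoter ratios, were added after seeing the data. All members are accounted for, and those with a promoter DHS or with 5 or more assigned DHSs in either library are named with values. With 1 group and 1 library per animal no test was run. Matching and word searches were tested on simulated sites, in Python 3.11.15 with pandas 2.3.3.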

Additional observations from a re-analysis of the deposited data

How the results depend on the processing

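The number of members with a promoter DHS in replicate 2 was 30 and ran from 21 to 30 over the other peak list, windows of 500 bp and 2 kb, the 5′ end alone, only DHSs nearest to the gene itself and the strongest 50000 DHSs. In replicate 1 it was 13, against 8 in the shorter list and 6 among the strongest 50000. The 17 members found in replicate 2 alone became 8 when its shorter list was set against the longer list of replicate 1, a pairing chosen after seeing the data, in which 0.711% of all genes were so found, and the count ran from 13 to 19 under the other settings. With the 5′ end alone, 1 member, Ptpn6, was found in replicate 1 alone. The mean of the libraries, 21.5 members, ran from 13 to 30 when either was left out, so each count rests on its own library. Assigned DHSs, 236 in replicate 2 and 154 in replicate 1, numbered 123 and 116 in replicate 2 and 100 and 59 in replicate 1 with the shorter list and with the strongest 50000. The median log2 ratio of summed height, 0.70, was 0.32 with heights as deposited, where the median of all genes shifted to −0.37. No paired analysis was possible because both libraries belong to 1 group.

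With 1 library per animal, differences between animals, dissections and libraries cannot be told apart. A gene without a listed DHS had no measured height, so absence means not detectable at the threshold of the list.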
